A study of Mus musculus with 6 samples.

Results

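Accessible chromatin regions assigned to 8 genes of retinoic acid signalling were examined in mouse NIH/3T3 cells, an embryonic fibroblast line. The genes were the retinoic acid receptor genes Rarb, Rara and Rarg, the retinoid X receptor genes Rxra and Rxrb, the carrier genes Crabp1 and Crabp2, and the breakdown enzyme gene Cyp26b1. The genes were selected on the signal of these same libraries in this same comparison, and every region that the deposited table assigned to one of them was taken, at any distance from its transcription start site (TSS). This gave 14 of the 63430 regions, for 7 of the 8 genes, and no region was assigned to Crabp1. The RNA-cutting CRISPR nuclease Cas13d had been knocked into the line, so all cells carried it. One group was transfected with a guide RNA that directs Cas13d to the Actg1 mRNA (cytoplasmic gamma-actin), and the control group with a GFP guide, with 3 libraries each. The study asked how degradation of an mRNA contributes to transcriptional adaptation, in which decay of an mRNA is accompanied by higher expression of related genes. The assay was ATAC-seq: the transposase Tn5 cuts and tags DNA where chromatin is open. The labels call the 3 libraries of a group biological replicates. Neither separate cultures nor the clonality of the knock-in line is stated. The errors given here rest on the spread between these libraries, at the region itself and over all regions according to their signal. That spread may be technical.

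Retinoic acid, made from vitamin A, is carried inside cells by CRABP proteins and is broken down by CYP26 enzymes. It binds retinoic acid receptors (RARs), which sit on DNA as dimers with retinoid X receptors (RXRs) at direct repeats of a short half-site. Without ligand the dimers recruit corepressors, and with ligand they recruit coactivators. Rarb is a classic retinoic acid target: one of its promoters holds a direct repeat with a 5-base spacer (DR5) to which RAR and RXR bind. RXRs also pair with other nuclear receptors, and in fibroblasts retinoic acid is known as a regulator of growth and matrix genes.

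The promoter sequences below, from RefSeq on GRCm38.p6, run from 250 bases before to 50 bases after an annotated start. They are shown because they frame the positions of the accessible regions: the Rarb promoter with the DR5 had no region over it, the Rara and Rarg promoters did, and the Cyp26b1 promoter did not. Capitals mark matches to the DR5 (a pair of half-sites, each being AGGTCA or AGTTCA or GGGTCA or GGTTCA), the GC box GGGCGG and the TATA box TATAAA, each searched on both strands, so that CCGCCC is a GC box read from the other strand.
Rarb, minus strand, chr14:16575427-16575726: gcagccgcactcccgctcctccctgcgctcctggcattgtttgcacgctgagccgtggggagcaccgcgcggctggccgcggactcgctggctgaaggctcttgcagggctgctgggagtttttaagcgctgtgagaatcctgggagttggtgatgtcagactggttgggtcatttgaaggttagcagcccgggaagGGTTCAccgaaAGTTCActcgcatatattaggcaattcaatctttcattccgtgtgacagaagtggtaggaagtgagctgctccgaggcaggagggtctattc
Rara, plus strand, chr11:98937446-98937745: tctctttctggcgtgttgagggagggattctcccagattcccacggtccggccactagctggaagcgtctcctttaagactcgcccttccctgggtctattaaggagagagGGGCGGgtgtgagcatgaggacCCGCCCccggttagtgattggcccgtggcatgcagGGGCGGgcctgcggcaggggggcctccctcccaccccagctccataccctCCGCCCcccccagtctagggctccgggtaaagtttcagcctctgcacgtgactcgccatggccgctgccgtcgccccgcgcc
Rarg, minus strand, chr15:102257473-102257772: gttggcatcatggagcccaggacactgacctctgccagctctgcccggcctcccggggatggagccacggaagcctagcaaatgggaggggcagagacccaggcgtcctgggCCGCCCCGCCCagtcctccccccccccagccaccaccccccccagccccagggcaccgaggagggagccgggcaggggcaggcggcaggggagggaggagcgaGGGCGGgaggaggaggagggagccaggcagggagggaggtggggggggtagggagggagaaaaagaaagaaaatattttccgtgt
Cyp26b1, minus strand, chr6:84593761-84594060: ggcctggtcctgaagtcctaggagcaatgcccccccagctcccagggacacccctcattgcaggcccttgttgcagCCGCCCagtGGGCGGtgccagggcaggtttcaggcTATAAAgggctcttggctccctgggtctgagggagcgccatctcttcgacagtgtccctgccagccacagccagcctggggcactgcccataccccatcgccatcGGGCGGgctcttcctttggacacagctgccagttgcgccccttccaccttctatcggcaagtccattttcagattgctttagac

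The Rarb window held the DR5 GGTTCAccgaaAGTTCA at its bases 198 to 214. It was the only one of the 13 RefSeq windows of 7 of these genes that matched the DR5 search, and 0.0974% of all RefSeq windows did. Crabp2 had no window in the table used. The exact sequence TATAAA was found in the Cyp26b1 window alone among the 13, at -139 bases from the start, against 13.6% of all windows. Other forms of the TATA box were not searched, so the other windows, that of Rarb included, may hold one. GC boxes, present in 35.7% of all windows, occurred in the Rara, Rarg and Cyp26b1 windows shown but not in that of Rarb. The windows shown were richer in G and C than the median window of 52.7%, with 57.7% for Rarb, 66.3% for Rara, 70.0% for Rarg and 62.3% for Cyp26b1.

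All values are the authors' normalized read signal per region, given for libraries 1, 2 and 3 of each guide. The 6 libraries held about 5675952 to 9526290 reads in regions, as estimated from the small values. GFP guide libraries 1 and 2 gave a chi-square per region of 0.987 (p = 0.982), less than counting error alone would give. Their mean entered as 1 sample, and the comparison sets 3 Actg1 guide samples against 2 GFP guide samples. Leaving out GFP guide library 3 leaves that mean as the only GFP guide sample. Calls lost in that setting may reflect the lost sample, which was not tested. A region was called higher or lower with the Actg1 guide at an adjusted p under 0.05 in limma, fitted to log2(signal + 1) over all 61327 regions that passed a filter on low signal. All 14 retinoid regions passed it. No region was assigned to Actg1, and ATAC-seq does not measure the targeted mRNA. Of 12 fibroblast markers, 10 had a promoter region, with a summed signal of 3560 to 3694 with the Actg1 guide and 3954 to 4042 with the GFP guide. Pdgfra and Thy1 had none. The fibroblast markers did not move together: of their 13 promoter regions 1 was called higher and 5 lower. Col1a1 was higher, while S100a4 and Col1a2 were among the lower ones (log2 fold changes, Actg1 guide over GFP guide, of 0.70, -1.30 and -0.77). No promoter region was found for 4 endothelial and 4 muscle markers, 2 of 6 epithelial markers had one (summed signal 123 to 158 with the Actg1 guide, 121 to 148 with the GFP guide), and of 6 blood markers only Cd68 had one, with 91 to 112 with the Actg1 guide and 42 to 56 with the GFP guide. In a bulk assay, a change in some cells and a smaller change in all cells cannot be told apart. Any part of these differences in the results below was not tested.

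The retinoid genes did not move as a group. With the Actg1 guide, both Rarb regions were higher, both Crabp2 regions, the Rarg promoter and a region upstream of Rxra were lower, and the other 8 regions were not called. Over all tested regions 41.3% were called, 20.6% higher and 20.7% lower, and of the 21180 tested regions assigned to a gene 36.3% were (17.9% higher, 18.4% lower), so 2 higher and 4 lower of 14 is a share near the background. Since the genes were proposed with this contrast in view, their values are a description and carry no test. The median log2 fold change (Actg1 guide over GFP guide) of the 14 was 0.08, beside -0.01 for all tested regions, and the median size of the change was 0.23, beside 0.31. The Actg1 guide libraries lay wholly above the GFP guide libraries at 3 of the 14 regions and wholly below at 4, against 25.2% and 25.5% of all tested regions. Both Rarb regions and the upstream Crabp2 region, 3 of the 14, were called with a change of at least 2-fold, as were 12.2% of all tested regions and 6.59% of those assigned to a gene. Among the 14, the called region nearest the threshold was the Crabp2 promoter at -0.30. The nearest uncalled ones were the Rxrb promoter at 0.12 and the Cyp26b1 region nearest its start at 0.30, neither of them close to it.

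**Figure D1:**
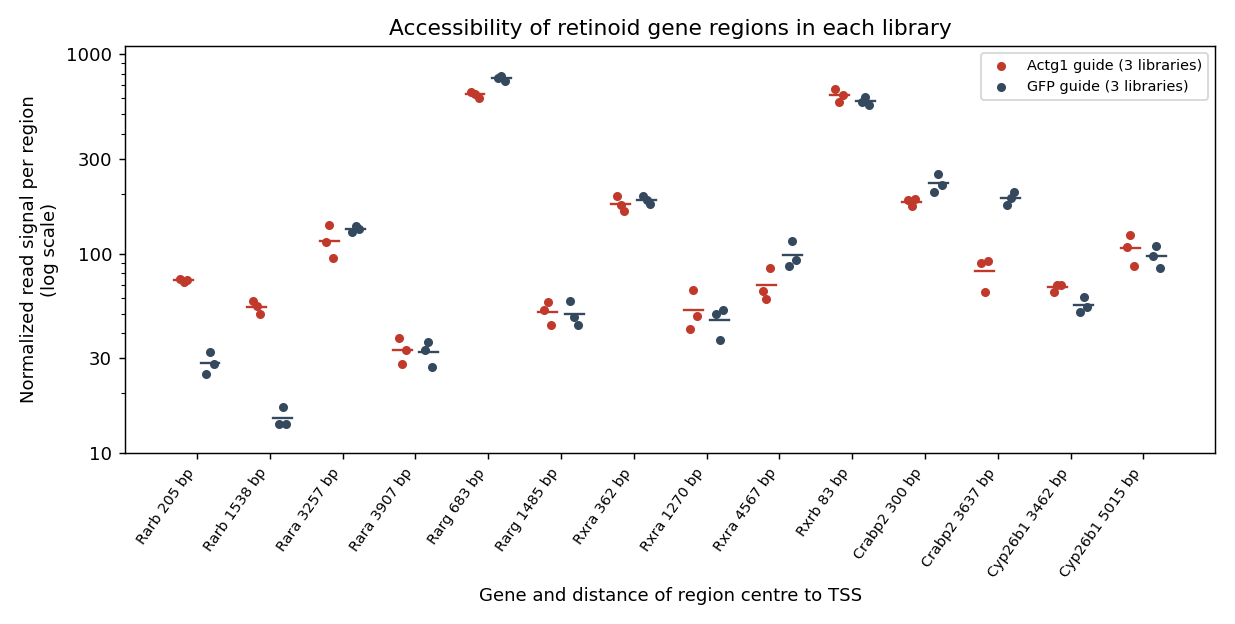
Normalized read signal (log axis) of the 14 retinoid regions in each library, with Actg1 guide libraries in red and GFP guide libraries in dark blue. Each dot is a library and each line the mean of 3 libraries. The Rarb regions are higher with the Actg1 guide (50 to 75) than with the GFP guide (14 to 32), and the Crabp2 region 3637 bp from the TSS is lower (64 to 92 with the Actg1 guide, 176 to 205 with the GFP guide).

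Rarb, the gene of RAR beta, had the largest increases among the 14 regions. Its promoter region, chr14:16818751-16819151 (mm10), 205 bp inside the gene from the TSS used in the table, had a signal of 75, 72 and 74 with the Actg1 guide and 25, 32 and 28 with the GFP guide. The second, chr14:16817508-16817727, 1538 bp inside the gene, had 58, 55 and 50 with the Actg1 guide and 14, 17 and 14 with the GFP guide. At both, the Actg1 guide libraries lay close together and far above all GFP guide libraries. By the ratio of group means the signal was 2.61 times as high at the first region, with a log2 fold change of 1.35 (SE 0.18), and 3.68 times as high at the second, with 1.81 (SE 0.22). Ranked from the most increased of the 61327 regions, they stood 1678th and 456th. Of regions with a like signal, 5.65% and 2.49% changed by at least as much in either direction. As Rarb was selected on this contrast, these ranks and shares are a description and do not measure how rare such a change is. Among 9954 tested promoter regions of protein-coding genes (centre within 1 kb of the TSS), 31.2% were called (12.9% higher, 18.3% lower), and 0.995% were called with a change of at least 2-fold. Both Rarb regions were called under every alternative setting, with log2 fold changes of 1.24 to 1.44 and 1.59 to 1.89.

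Of 2879 protein-coding genes with at least 2 tested regions, 118 had every region called higher. In 4 of the 2879, Rarb included, every region rose by at least as much as the less changed Rarb region. This cut-off is a value of Rarb itself, which was selected on this contrast, so the count is a description only. The level of the Rarb promoter region was low. Its mean signal stood at the 9.29th percentile of protein-coding promoter regions. Per kb of region its signal was 180 to 187 with the Actg1 guide and 62.3 to 79.8 with the GFP guide, against a median of 309.9 for coding promoters.

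**Figure D2:**
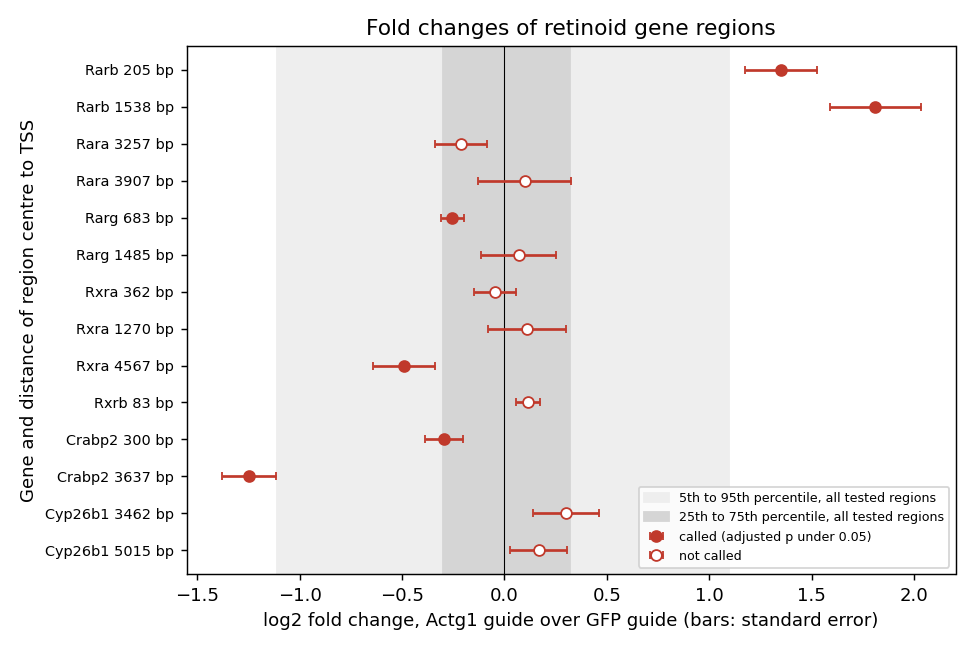
Log2 fold change of signal (Actg1 guide over GFP guide, horizontal axis) for the 14 retinoid regions, with bars for the standard error. Filled points are called, and the grey bands hold the middle of all tested regions (25th to 75th percentile, -0.30 to 0.32) and their 5th to 95th percentile (-1.11 to 1.09). Both Rarb regions (1.35 and 1.81) and the upstream Crabp2 region (-1.25) lie outside the wider band.

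Both regions assigned to Rarb lay near the TSS used in the table. The gene is long and has several starts. Its bounds in the table end at that TSS, at base 16819156, while its RefSeq bounds extend to base 17082331. Of this further stretch, only the part within 100 kb of the regions assigned to Rarb was examined. That TSS lies 243.7 kb from the RefSeq start whose promoter holds the DR5 shown above. No region overlapped that promoter window, and the nearest lay 17065 bp away. Within 10 kb of the TSS used in the table there was another region, chr14:16813640-16813989, 5.34 kb inside the gene and assigned to no gene. It had 65, 80 and 64 with the Actg1 guide and 33, 29 and 33 with the GFP guide. It rose as well (log2 fold change 1.09, limma adjusted p = 3.45e-06). All 3 regions near this start were thus higher, with a median log2 fold change of 1.35. Apart from this region they are the Rarb regions selected on this contrast, and the median is the value of the Rarb promoter region. The count and the median are therefore a description only.

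Further into the gene, called regions were lower. Between 10 kb from the TSS used in the table and the DR5 start, 6 regions were tested: none was higher, 3 were lower and 3 were not called, with a median log2 fold change of -0.86. The region chr14:16728327-16728788, 90.6 kb inside, had 19, 24 and 30 with the Actg1 guide and 61, 72 and 79 with the GFP guide (log2 fold change -1.56, limma adjusted p = 1.25e-07). Another, chr14:16738576-16738998, 80.4 kb inside, had 48, 42 and 54 with the Actg1 guide and 96, 86 and 97 with the GFP guide (-0.96, limma adjusted p = 5.98e-06). At both, no libraries of the groups overlapped.

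From the DR5 start to the gene's end, 12 regions were tested, of which 3 were higher, 4 lower and 5 not called. The 3 higher ones were among the 4 tested regions closest to that start. The closest, starting at base 16558068, had 94, 73 and 92 with the Actg1 guide and 51, 46 and 67 with the GFP guide (log2 fold change 0.58, limma adjusted p = 0.0029). Its call was lost without a mean-variance trend, and those of the other two, at 0.50 and 0.28, also without GFP guide library 3. The call at 0.28 was lost as well without Actg1 guide library 1 or 3 or GFP guide library 1. Towards the gene's end, the region starting at base 16433141 had 61, 69 and 74 with the Actg1 guide and 133, 132 and 159 with the GFP guide (-1.09, limma adjusted p = 2.17e-08). Over the 19 tested regions in the gene body that were not assigned to Rarb, 4 were higher and 7 lower. Without GFP guide library 3 these counts were 2 and 4.

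**Figure D3:**
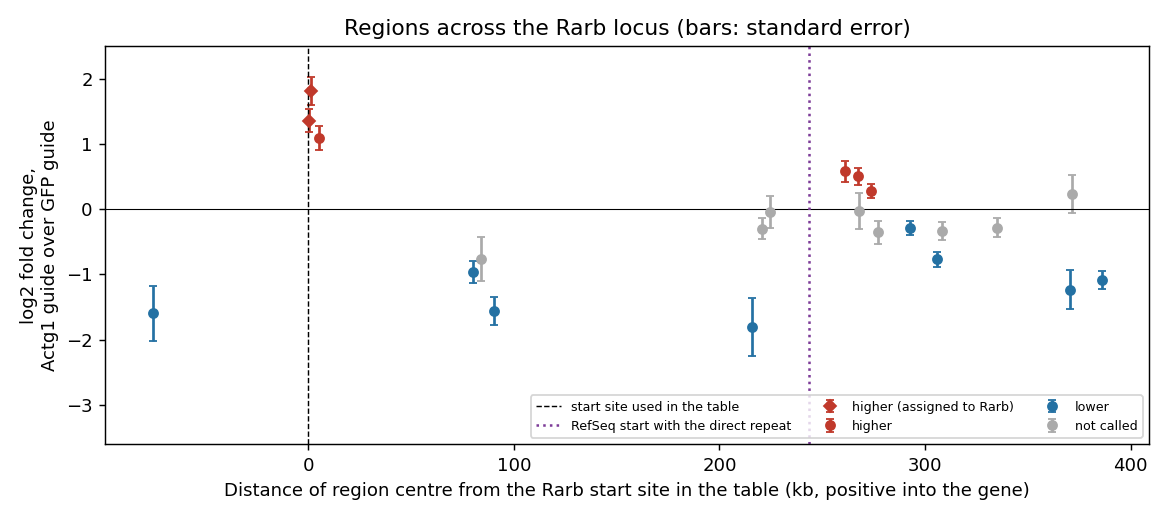
Log2 fold change (Actg1 guide over GFP guide, bars for the standard error) of tested regions across the Rarb locus. Shown is each tested region inside the gene's bounds in the table or within 100 kb of the regions assigned to it. The horizontal axis is the distance in kb from the TSS used in the table, with positive distances into the gene. Diamonds are the regions assigned to Rarb, the dashed line is that TSS and the dotted line the RefSeq start whose promoter holds the DR5. The 3 regions nearest the dashed line lie at 1.09 to 1.81, and the 6 regions between 10 kb and the dotted line all lie below 0.

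The 5 coding promoter regions whose signal over the 6 libraries was most like that of the Rarb promoter region, among 1330 with a mean signal between 25.5 and 102, were those of Mapre2, Col7a1, Zcchc2, Dand5 and B4galt7, with Pearson's r of 0.997, 0.996, 0.993, 0.993 and 0.992. Col7a1, a collagen gene, had 132, 131 and 131 with the Actg1 guide and 64, 69 and 67 with the GFP guide. B4galt7, a glycosyltransferase gene, had 82, 73 and 79 with the Actg1 guide and 31, 43 and 38 with the GFP guide. Likeness was measured on shape, not size: the log2 fold changes of Mapre2, Col7a1 and B4galt7 were 0.39, 0.97 and 1.04, all called (Mapre2 not without GFP guide library 1 or 3 or Actg1 guide library 1), while Zcchc2 at 0.21 and Dand5 at 0.31 were not. An r of at least 0.95 was reached by 42 of the 1330, and all values share the same libraries.

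Rara, the gene of RAR alpha, the most widely expressed RAR in mouse tissues, had no called region. The region chr11:98930791-98931359, 3257 bp inside the gene, had 115, 139 and 95 with the Actg1 guide and 129, 138 and 133 with the GFP guide (log2 fold change -0.21, SE 0.13). The region chr11:98931663-98931787, 3907 bp inside, had 38, 28 and 33 with the Actg1 guide and 33, 36 and 27 with the GFP guide (0.10, SE 0.23). The libraries of the groups overlapped at both. The first was called lower when Actg1 guide library 2 was left out (-0.35).

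The Rara promoter sequence shown above lies under a stronger region, chr11:98937343-98937841, which the table assigned to no gene. It had 279, 291 and 262 with the Actg1 guide and 234, 264 and 245 with the GFP guide, and was not called (log2 fold change 0.17, SE 0.08, limma adjusted p = 0.106), except in limma-voom on estimated reads (0.19) and without GFP guide library 2 (0.21). In the Rara gene body, 4 regions not assigned to Rara were higher and 2 lower of 10 tested. The higher calls were lost without GFP guide library 3, a setting with 1 GFP guide sample. The largest change within 100 kb was at chr11:98951331-98951938, which had 80, 84 and 86 with the Actg1 guide and 180, 194 and 188 with the GFP guide (log2 fold change -1.16, limma adjusted p = 1.78e-10).

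Rarg, the gene of RAR gamma, had the region with the highest mean signal of the 14. It spans the TSS at chr15:102257148-102259251, over the promoter sequence shown above, and had 648, 635 and 606 with the Actg1 guide and 761, 778 and 733 with the GFP guide. All Actg1 guide libraries lay below all GFP guide libraries, and the region was called lower, with a small change of -0.25 (log2 fold change, SE 0.05). This call was lost when limma was fitted without a mean-variance trend. The region 1485 bp inside the gene, chr15:102255962-102256102, had 52, 57 and 44 with the Actg1 guide and 58, 48 and 44 with the GFP guide (0.07, SE 0.18). A second RefSeq promoter of Rarg lies under the unassigned region chr15:102246309-102248129, which had 599, 588 and 651 with the Actg1 guide and 596, 659 and 599 with the GFP guide. There the groups overlapped and the log2 fold change was 0.00 (SE 0.06, limma adjusted p = 0.979).

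The RXR promoters, which serve the common partners of the RARs, were not called. The Rxra region over the TSS, chr2:27676259-27677344, had 195, 176 and 163 with the Actg1 guide and 194, 186 and 177 with the GFP guide (log2 fold change -0.05, SE 0.10). The Rxra region 1270 bp inside the gene, chr2:27677464-27677955, had 42, 66 and 49 with the Actg1 guide and 50, 37 and 52 with the GFP guide (0.11, SE 0.19). The Rxrb region over the TSS, chr17:34031181-34032609, had 668, 577 and 621 with the Actg1 guide and 573, 611 and 555 with the GFP guide (0.12, SE 0.06). The libraries of the groups overlapped at each. The Rxrb region was called higher, at 0.14 to 0.17, when the values were rescaled by loess or by quantiles, in limma-voom on estimated reads and without Actg1 guide library 2.

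The region 4567 bp upstream of Rxra, chr2:27671645-27672101, had 65, 59 and 85 with the Actg1 guide and 87, 116 and 93 with the GFP guide. The highest Actg1 guide library came close to the lowest GFP guide library without reaching it, and the region was called lower (-0.49, SE 0.15). The call was lost without a mean-variance trend (-0.49), without Actg1 guide library 1 (-0.45) or 2 (-0.38), and without GFP guide library 3 (-0.55). Larger losses lay inside Rxra, at regions assigned to no gene. The region chr2:27699592-27699912, 23.3 kb inside, had 12, 12 and 21 with the Actg1 guide and 75, 72 and 62 with the GFP guide (log2 fold change -2.14, limma adjusted p = 5.51e-09). Near its end, the region starting at base 27758233 had 53, 55 and 54 with the Actg1 guide and 121, 122 and 122 with the GFP guide (-1.16, limma adjusted p = 1.98e-08). Both stayed called when each library was left out in turn.

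Crabp2, the gene of a protein that delivers retinoic acid to nuclear receptors, was lower at both of its regions. The region 3637 bp upstream, chr3:87944891-87945166, had 90, 64 and 92 with the Actg1 guide and 176, 190 and 205 with the GFP guide. Every Actg1 guide library lay far below every GFP guide library, at 0.423 times the signal (log2 fold change -1.25, SE 0.13). Of regions with a like signal, 1.92% changed by at least as much in either direction. This share is a description only, since the gene was selected on this contrast. The call held under every alternative, at -1.34 to -1.08. The promoter region, chr3:87948492-87949440, had 186, 173 and 188 with the Actg1 guide and 204, 252 and 220 with the GFP guide (-0.30, SE 0.09). The groups did not overlap there either, but the call was lost without a mean-variance trend and without GFP guide library 2 (-0.22) or 3 (-0.32).

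Crabp1, the other CRABP gene, had no region, and its RefSeq promoter lay 22776 bp from the nearest one. That region, chr9:54787573-54788060, had 45, 32 and 52 with the Actg1 guide and 126, 140 and 134 with the GFP guide (log2 fold change -1.64, limma adjusted p = 1.63e-10), with no overlap between the groups. The table names no gene for it.

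Cyp26b1, which encodes an enzyme that oxidises retinoic acid to inactive forms, had regions only inside the gene. The one at chr6:84590339-84590552, 3462 bp from the TSS, had 64, 70 and 70 with the Actg1 guide and 51, 61 and 54 with the GFP guide. Every Actg1 guide library was above every GFP guide library, but the region was not called (log2 fold change 0.30, SE 0.16), nor was it under any alternative. The one at chr6:84588603-84589183, 5015 bp from the TSS, had 108, 124 and 87 with the Actg1 guide and 97, 109 and 85 with the GFP guide (0.17, SE 0.14), with overlapping libraries. Of the other 2 tested regions inside the gene, both unassigned, 1 was lower and 1 higher. The lower one, starting at base 84579572, had 89, 92 and 92 with the Actg1 guide and 125, 131 and 142 with the GFP guide (log2 fold change -0.56, limma adjusted p = 0.000304). The higher one, at 0.35, lost its call without GFP guide library 1 or 3 or Actg1 guide library 2 or 3. Larger increases lay in unassigned regions past the gene's end. The region starting at base 84559450, 34.3 kb from the TSS, had 77, 92 and 84 with the Actg1 guide and 37, 29 and 30 with the GFP guide (log2 fold change 1.39, limma adjusted p = 8.19e-09). Another, starting at base 84568191, had 82, 88 and 111 with the Actg1 guide and 50, 48 and 45 with the GFP guide (0.97, limma adjusted p = 2.74e-06).

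Levels were compared between genes per kb of region, for the 5 genes with a region within 1 kb of the TSS. With the Actg1 guide the order was Rxrb at 403.8 to 467.5, Rarg at 288.0 to 308.0, Crabp2 at 182.3 to 198.1, Rarb at 179.6 to 187.0 and Rxra at 150.1 to 179.6. The ranges of Crabp2 and Rarb overlapped and those of Rarb and Rxra met at their ends. With the GFP guide the order was Rxrb at 388.4 to 427.6, Rarg at 348.4 to 369.8, Crabp2 at 215.0 to 265.5, Rxra at 163.0 to 178.6 and Rarb at 62.34 to 79.8, with no overlap between neighbours. Rarb, the lowest of the 5 with the GFP guide, thus reached the ranges of Rxra and Crabp2 with the Actg1 guide, but only per kb. Its region is 401 bp long, against 1086 bp for Rxra and 949 bp for Crabp2. Not divided by length, the signal with the Actg1 guide was 72 to 75 at Rarb, 163 to 195 at Rxra and 173 to 188 at Crabp2.

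Within 100 kb of the members, called regions went both ways at 7 of the 8 loci. For comparison, 43.9% of all tested regions assigned to no gene were called (22.1% higher, 21.9% lower). Of those assigned to a gene 36.3% were called (17.9% higher, 18.4% lower), and the neighbouring regions are of both kinds. Around Rxrb, which lies among genes of the major histocompatibility complex, 14 of 20 tested regions were higher and 1 was lower, although these counts were 6 and 1 without GFP guide library 3 and 5 and 1 without a mean-variance trend. The lower one, chr17:34068990, had 15, 15 and 16 with the Actg1 guide and 38, 32 and 30 with the GFP guide (log2 fold change -1.03, limma adjusted p = 0.00225). Around Rara 7 of 18 were higher and 2 lower (1 and 2 without GFP guide library 3), around Rarg 3 and 2 of 15 (0 and 0), around Crabp2 4 and 2 of 18 (1 and 0), and around Cyp26b1 4 and 2 of 10 (2 and 1). Around Rarb 1 was higher and 3 lower of 5. Around Rxra 3 of 11 were lower and none higher, and the lower call at -0.53 was lost under 6 of 16 alternatives. Around Crabp1 2 of 11 were higher and 1 lower (2 and 3 without GFP guide library 2). The higher call there at 0.40 was lost without GFP guide library 3.

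The region with the largest called change at the remaining loci was usually a weak one. Near Crabp1, the region starting at base 54872466 had 17, 18 and 23 with the Actg1 guide and 7, 7 and 4 with the GFP guide (log2 fold change 1.67, limma adjusted p = 0.000379). Near Cyp26b1, the region starting at base 84657252 had 11, 5 and 4 with the Actg1 guide and 24, 25 and 14 with the GFP guide (-1.46, limma adjusted p = 0.00595). Near Rarg, the region assigned to Aaas had 46, 34 and 55 with the Actg1 guide and 19, 38 and 20 with the GFP guide (0.86, limma adjusted p = 0.00208). Before the Rarb TSS used in the table, the region starting at base 16894611, which lies within the longer RefSeq bounds of Rarb, had 6, 7 and 4 with the Actg1 guide and 22, 17 and 18 with the GFP guide (-1.59, limma adjusted p = 0.00223). Near Crabp2, the region starting at base 88011002 had 33, 22 and 26 with the Actg1 guide and 23, 16 and 11 with the GFP guide (0.82, limma adjusted p = 0.02). The groups overlapped at the Aaas and Crabp2 loci, and without GFP guide library 3 the calls near Cyp26b1, Aaas, Rarb and Crabp2 were lost.

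**Figure D4:**
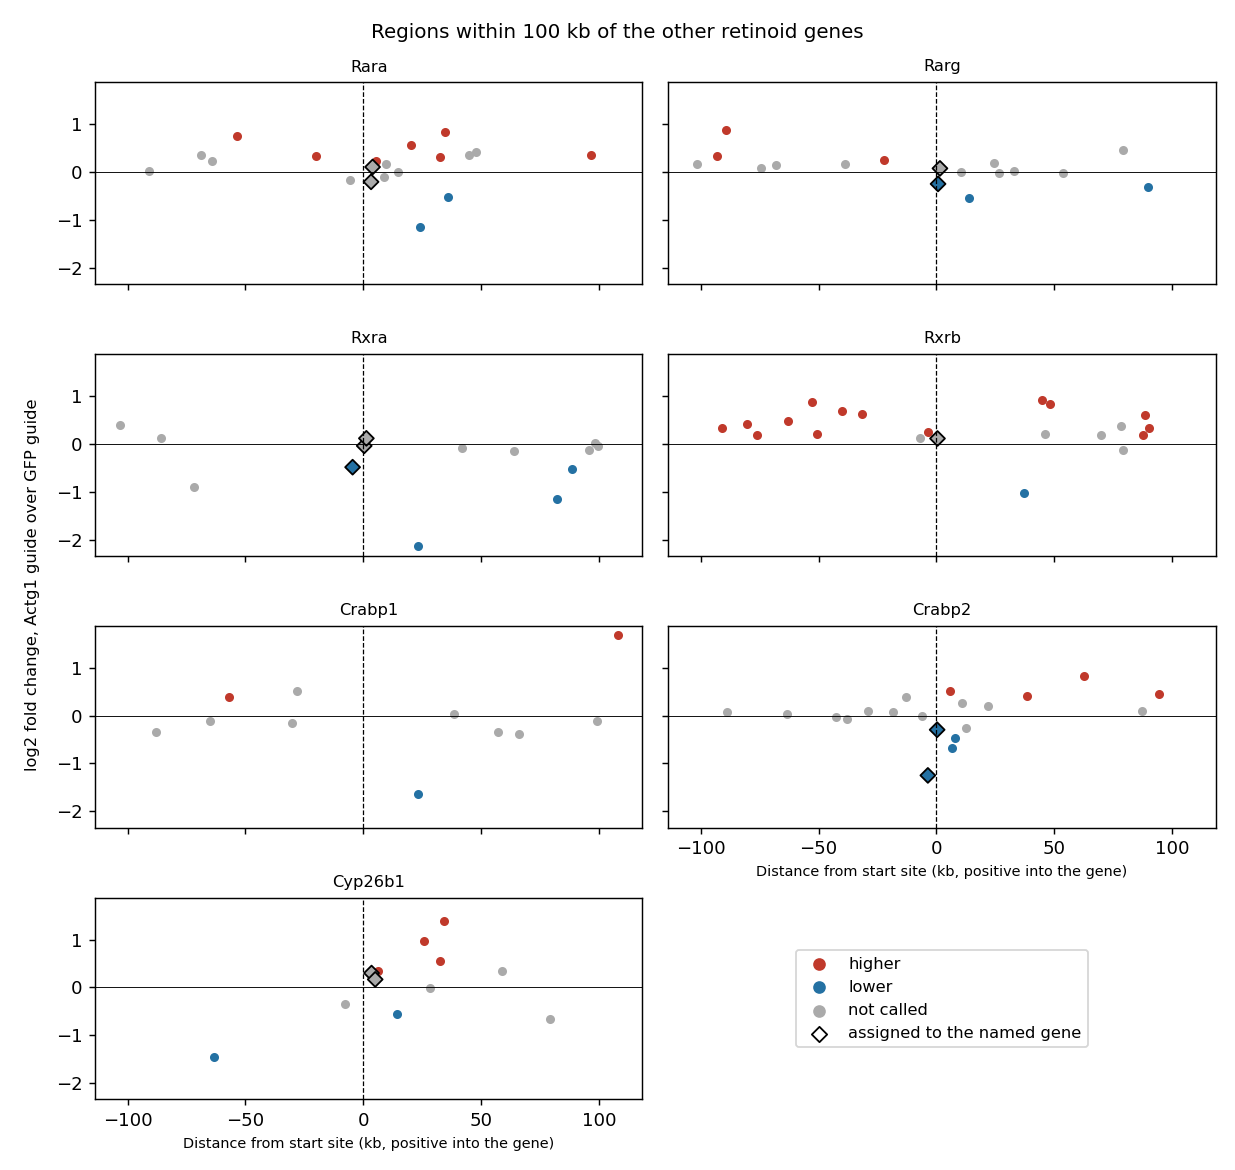
Log2 fold change (Actg1 guide over GFP guide) of tested regions within 100 kb of the other 7 retinoid genes, against the distance in kb from the start site, positive into the gene. Red points are called higher, blue lower and grey not called, and diamonds are regions assigned to the named gene. Higher regions prevail around Rxrb (14 of 20), and Rxra holds the lowest value (-2.14).

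Other genes of the pathway were followed through 82 genes outside the members, of which 55 had a tested region. Of their 74 regions, 12 rose and 19 fell with the Actg1 guide, or 41.9%, close to the 41.3% of all regions, and the median log2 fold change was 0.01. Unless another distance is given, the counts below are of promoter regions, of which 31.2% were called over all coding genes.

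Among 11 promoter regions of genes for retinoic acid synthesis and its brake, 1 was higher and 3 were lower. At any distance, 5 were higher and 4 lower of the 19 tested regions of these genes. The largest change was an increase 4933 bp inside Rdh13 (log2 fold change 1.33, limma adjusted p = 3.52e-08). Rdh5, a retinol dehydrogenase gene, changed both ways. Its region 853 bp inside the gene had 147, 187 and 126 with the Actg1 guide and 88, 103 and 96 with the GFP guide (log2 fold change 0.65, limma adjusted p = 5.21e-05). Its stronger region, 465 bp upstream, had 624, 544 and 629 with the Actg1 guide and 688, 690 and 693 with the GFP guide and was lower (-0.21, limma adjusted p = 0.00421). Rdh14 at -0.23 and the dehydrogenase gene Adh5 at -0.22 were also called lower, and all 3 lower calls were lost without GFP guide library 3. None of 3 promoters for retinoid uptake, transport and storage was called, and 1 was called higher without GFP guide library 1 or after quantile scaling. The only promoter among the other breakdown and carrier genes was that of Fabp5, a fatty acid binding protein that can also carry retinoic acid. It was lower at -0.25 (limma adjusted p = 0.00858), a call lost without GFP guide library 2 or 3.

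Among 6 promoters of other receptors and RXR partners, 3 were lower and none higher. At any distance, 4 of the 11 tested regions of these genes were lower and none higher. The largest change was 4166 bp upstream of Pparg, at a weak region. It had 8, 15 and 10 with the Actg1 guide and 51, 36 and 51 with the GFP guide (log2 fold change -2.05, limma adjusted p = 3.43e-07). Nr4a1, an orphan receptor that can pair with RXR, had 207, 208 and 188 with the Actg1 guide and 288, 335 and 312 with the GFP guide (log2 fold change -0.63, limma adjusted p = 1.2e-07). Nr4a2, a close relative, had 367, 326 and 347 with the Actg1 guide and 475, 482 and 474 with the GFP guide (-0.46, limma adjusted p = 1e-06). At both genes the groups did not overlap. Nr1h3, the gene of the liver X receptor alpha, was lower at -0.26 (limma adjusted p = 0.0201), a call lost without Actg1 guide library 1 or 3 or GFP guide library 3.

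Of 16 promoter regions of corepressors and coactivators, 4 were higher and 5 lower, and none was called without GFP guide library 3. Ncoa1, a coactivator gene, had 248, 212 and 254 with the Actg1 guide and 301, 308 and 317 with the GFP guide (log2 fold change -0.39, limma adjusted p = 0.000315). The promoter region of Gps2, a corepressor complex gene, was higher at 0.36, a call also lost without Actg1 guide library 1. Tbl1x, of the same complex, changed both ways: the region over its start was lower at -0.26, and a weaker region 887 bp inside the gene was higher at 0.35, a call lost under 7 of 16 alternatives.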

How the data were processed

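The authors deposited 1 ATAC-seq table with a signal per region and library: a score, that is, a read count normalized and rounded to whole numbers by a formula that is not given. The submitters' processing notes name, without roles, DESeq, DESeq2 1.36.0, featureCounts, Picard 3.0.0, STAR 2.7.10a, Trimmomatic 0.39 and the build mm10. For the peak caller and the Tn5 offset, the sources used here state nothing. Depth was estimated from gaps among small values.

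The values being normalized, limma 3.58.1 (R 4.3.3) with a mean-variance trend was fitted to log2(signal + 1), which understates changes of low regions. A region was tested if 3 or more libraries reached a signal of 10 (61327 kept, 2103 left out), with Benjamini-Hochberg adjustment over all of them and a threshold of 0.05. GFP guide libraries 1 and 2 were averaged as 1 sample, so the setting without GFP guide library 3 had 1 GFP guide sample. The read estimate and the fit were tested on simulated data.

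The members, lists and rules were chosen with earlier results of these data known. Named were all member regions, the 3 most changed called promoters per list, the most changed called region per locus and the 5 promoters most like Rarb. Other regions named within the Rarb, Rxra, Crabp1 and Cyp26b1 loci, and those of Rdh13 and Pparg, were chosen after their values were seen. Unassigned regions over RefSeq promoters were all given. The list of textbook retinoic acid targets is not reported here. The alternatives were other pseudocounts, filters, scalings and tests, a replicate block, and leaving out each library.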

Additional observations from a re-analysis of the deposited data

How the results depend on the processing

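The counts of called regions were 25323 over all tested regions, 6 among the members and 31 in the pathway lists. Without a mean-variance trend they were 17341, 3 (2 higher, 1 lower) and 11. Leaving out 1 library at a time gave 12793 to 24706 over all regions, 4 to 7 among the members and 12 to 29 in the lists. The lowest count over all regions came without GFP guide library 3, with 7381 higher and 5412 lower, and 12 were then called in the lists. With the 6 libraries kept separate 28176 regions were called.

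Libraries with the same number deviated together only weakly (correlations of 0.03, 0.01 and 0.02), so the numbers were not taken to pair them. With a replicate block 28725 regions were called, of which 6 were members and 37 in the lists.

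Among the log2 fold changes, only uncalled ones near 0 turned sign. The Rara region at 3907 bp was at -0.0058 without Actg1 guide library 1 and -0.0728 without GFP guide library 3. The Rarg region at 1485 bp was at -0.0135 without Actg1 guide library 2 and -0.0623 without GFP guide library 3. The Rxra region at 1270 bp was at -0.0668 without Actg1 guide library 2, and that at 362 bp was at 0.0146 without Actg1 guide library 3. Leaving out 1 library at a time, these 4 regions reached 0.21, 0.17, 0.25 and, for the last, -0.11 at the other end of their ranges. The cause was not tested. The Rarb regions and the upstream Crabp2 region were called under all 16 alternatives. Changes below the spread of low-signal libraries were not detectable at this depth.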
